A study of Mus musculus with 6 samples.

Results

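The aminoacyl-tRNA synthetases were followed here as 35 genes of the 21929 in the deposited table. They were chosen by name, from the symbols of synthetases for the standard amino acids, and split into 19 genes of cytosolic enzymes and 16 genes of mitochondrial enzymes, the latter carrying the suffix 2. The table lists 16 of them under an older name (Sars for Sars1), and current symbols are used below. The samples were L929 cells, an established mouse fibroblast line, all taken from co-culture. In 3 libraries the cells were Biotin-, that is L929 cells that had not interacted with tumour cells, and in the other 3 they were Biotin+, L929 cells that had interacted with cells the labels call MFCSTCL, an abbreviation they do not spell out. All 6 libraries carry the same batch label, no library comes from L929 cells outside co-culture, and L929 being 1 line limits the model to that line. The labels do not state whether replicate libraries came from separate cultures, so p-values here reflect the variation among these 6 libraries and that variation may be technical.

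Each synthetase joins 1 amino acid, or in the case of Eprs1 a pair of them, to the tRNAs that read its codons, and so supplies the ribosome with charged tRNA. The cytosol and the mitochondrial matrix make protein with separate tRNA sets, and most amino acids therefore have separate nuclear genes for the enzyme of each compartment. Exceptions are Gars1 and Kars1, which each give both forms, and glutamine, for which mitochondria have no enzyme and instead amidate glutamate that Ears2 has placed on the glutamine tRNA. Many cytosolic synthetase genes are known targets of ATF4, the transcription factor that is made when the initiation factor eIF2 is phosphorylated under amino acid or endoplasmic reticulum stress.

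Levels are in FPKM, which is divided by a gene length. The length used is not given, so comparisons of level between genes are approximate. All 35 genes reached 1 FPKM in at least 3 libraries and were tested. Differences are Biotin-positive minus Biotin-negative on the scale of log2(FPKM + 1), which understates changes of low genes, with limma's standard error and its p-value adjusted over all 11029 genes tested. A gene passed at an adjusted p of 0.05, and rose and fell mean that it passed as higher or lower in the Biotin-positive libraries. In bulk RNA a change in the number of cells that carry a transcript and a change in its amount per cell cannot be told apart.

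Synthetase transcripts changed in both directions, at a rate near that of all tested genes. Of the 35 genes 12 rose, 18 fell and 5 did not pass, so 85.7% were called, where 73.9% of all tested genes were called (37.8% as higher, 36.1% as lower). The values of the groups were fully separate in 30 of the 35 genes, as they were in 76.9% of all tested genes. A change of at least 0.5 on the log2 scale was seen in 7 of the 35, or 20% of them, against 30.4% of all tested genes. The median absolute difference was 0.37 for the synthetases and 0.31 for all tested genes, and the differences ran from -0.81 for Sars1 to 0.66 for Pars2. Cytosolic enzymes stood higher in FPKM than mitochondrial ones, with a median Biotin-negative level of 54.9 FPKM over the 19 genes, from Farsb at 19.0 to Sars1 at 311. The 16 mitochondrial genes had a median of 8.77 FPKM, from Vars2 at 1.12 to Tars2 at 40.2. The plot of levels by library shows both sets.

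**Figure D1:**
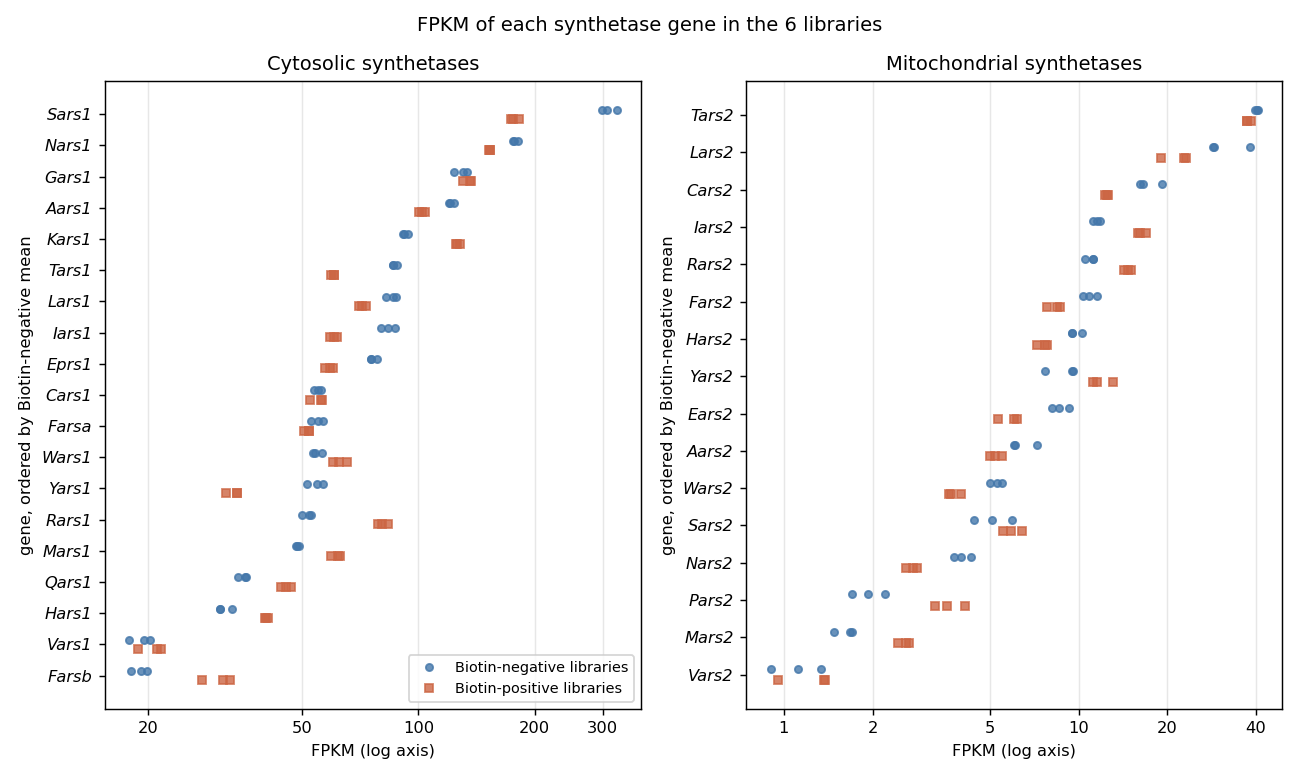
FPKM of the 19 cytosolic (left) and 16 mitochondrial (right) synthetase genes, each on its own logarithmic axis; circles are the 3 Biotin-negative and squares the 3 Biotin-positive libraries. For 30 of the 35 genes the symbols of the 2 groups do not overlap, and they lie to the left for some genes (Sars1, Yars1) and to the right for others (Rars1, Pars2).

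Among the 19 cytosolic genes 7 rose, 9 fell and 3 did not pass, and the median difference was -0.0035. So 84.2% were called, against 73.9% of all tested genes. A change of at least 0.5 was seen in 26.3%, against 30.4% of all tested genes. Sars1, the seryl-tRNA synthetase (ENSMUSG00000068739, chromosome 3, 108424865 to 108445209, in the deposited coordinates, which follow GRCm38), was the most abundant and fell most. It read 326, 298 and 309 FPKM in the Biotin-negative libraries and 173, 183 and 176 FPKM in the Biotin-positive group. The groups were far apart, with a ratio of means of 0.570 (difference -0.81, SE 0.0387, adjusted p = 2.89e-07). Yars1, the tyrosyl enzyme (chromosome 4, 129189760 to 129219607), read 51.6, 54.5 and 56.6 against 33.9, 31.8 and 34.0 FPKM, and every Biotin-positive library was below every Biotin-negative one (difference -0.69, adjusted p = 1.5e-06). Tars1, the threonyl enzyme (chromosome 15, 11382301 to 11399665), read 88.1, 86.0 and 85.9 against 60.4, 60.4 and 59.3 FPKM, again without overlap (difference -0.52, adjusted p = 5.29e-07). Falls of smaller size were found in Iars1 (83.6 ± 3.68 to 60.4 ± 1.34 FPKM, mean ± SD, n = 3), which charges isoleucine, and in Eprs1, the joined glutamyl and prolyl enzyme (76.4 ± 1.69 to 58.8 ± 1.34 FPKM). Lars1, Aars1 and Nars1, the enzymes for leucine, alanine and asparagine, fell by 0.25, 0.25 and 0.22 on the log2 scale. Aars1 shares 1326 exon bases with Exosc6 on the same strand in the GENCODE vM21 annotation. Exosc6 had means of 0.141 FPKM (Biotin-negative) and 0.0154 FPKM (Biotin-positive), and the part of this overlap in these values was not tested.

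The cytosolic genes that rose were led by Farsb and Rars1. Farsb, the beta subunit of phenylalanyl-tRNA synthetase (chromosome 1, 78417975 to 78488897), read 19.8, 19.2 and 18.1 FPKM in the Biotin-negative and 31.3, 32.5 and 27.6 FPKM in the Biotin-positive libraries (difference 0.65, SE 0.0632, adjusted p = 2.14e-05). Rars1, the arginyl enzyme (chromosome 11, 35808381 to 35834506), read 52.7, 49.9 and 52.1 against 80.7, 83.2 and 78.7 FPKM (difference 0.64, SE 0.035, adjusted p = 6.01e-07). In neither gene did the groups overlap. Kars1, which makes the lysyl enzyme of both compartments, read 93.9, 91.9 and 91.2 against 128, 126 and 125 FPKM (difference 0.45, adjusted p = 1.19e-06). Gars1, the glycyl enzyme of both compartments, read 133, 124 and 130.1 against 136, 137 and 131 FPKM, so the groups overlapped and it did not pass (difference 0.06, adjusted p = 0.167). Qars1, Hars1 and Mars1, for glutamine, histidine and methionine, rose by 0.36, 0.35 and 0.33 on the log2 scale. Wars1, the tryptophanyl enzyme and a known interferon-induced gene, rose from 54.6 ± 1.66 to 62.7 ± 2.70 FPKM (adjusted p = 0.00208), a call that was lost with quantile normalization (adjusted p = 0.06; the other alternatives gave values from 0.00116 to 0.00935). Cars1 and Vars1, for cysteine and valine, did not pass, with differences of -0.0035 and 0.09.

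**Figure D2:**
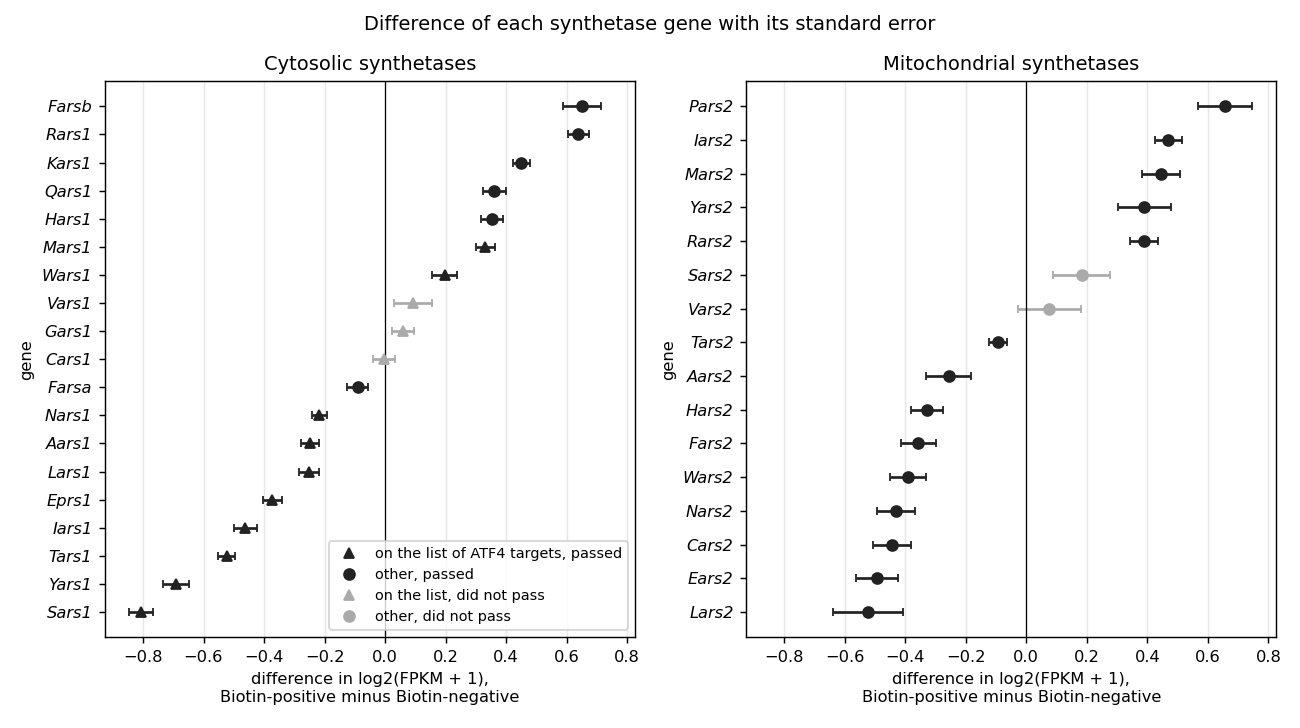
Difference in log2(FPKM + 1), Biotin-positive minus Biotin-negative, of each cytosolic (left) and mitochondrial (right) synthetase gene, ordered by size; bars are the standard error of the fit. Triangles mark the 13 cytosolic genes listed as ATF4 targets, which lie mostly at the lower end, from Sars1 at -0.81 to Mars1 at 0.33, and grey symbols did not pass.

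A list of enzymes widely given as ATF4 targets covered 13 of the 19 cytosolic genes and 8 of the 9 cytosolic falls. On it 76.9% were called, against 73.9% of all tested genes, of which 36.1% were called lower. Of those 13 genes 8 fell (Sars1, Yars1, Tars1, Iars1, Eprs1, Lars1, Aars1 and Nars1), 2 rose (Mars1 and Wars1) and 3 did not pass, with a median difference of -0.25. Of the 6 cytosolic genes off the list 5 rose (Farsb, Rars1, Kars1, Qars1 and Hars1) and Farsa fell, with a median of 0.41. The median over all tested genes was 0.01. No test was made of the list, which was drawn up with earlier results of these data known. Atf4 itself fell from 337 ± 9.09 to 280.1 ± 6.60 FPKM, with 347, 334 and 330.0 FPKM in the Biotin-negative and 288, 277 and 276 FPKM in the Biotin-positive libraries (difference -0.27, adjusted p = 7.75e-05). Whether its fall bears on the synthetases was not tested.

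Promoter sequence was looked at for the element that ATF4 binds together with C/EBP proteins. RefSeq windows of 250 bases before the start of transcription, on build GRCm38.p6, were matched for 26 of the 35 genes. Cars1, Hars1, Hars2, Lars1, Nars1, Pars2, Rars1, Vars1 and Wars1 had no entry. The motif TGATGNAA, or TTNCATCA on the other strand, was the only one searched. It was found in 3 of the 12 cytosolic genes matched and in 0 of the 14 mitochondrial ones, while 3.91% of the 27025 genes in the table held it in at least 1 window. The 3 matches are shown because they are the stretches of synthetase promoters that carry this element, with the 8 matched letters in capitals, each written 5′ to 3′ on the strand of its gene.
Aars1: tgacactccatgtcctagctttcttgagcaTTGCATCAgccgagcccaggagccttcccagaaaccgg
Tars1: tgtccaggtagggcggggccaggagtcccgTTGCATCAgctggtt
Gars1: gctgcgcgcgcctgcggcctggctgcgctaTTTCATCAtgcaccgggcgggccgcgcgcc
The Aars1 stretch lies at chr8:111033700-111033767 on the plus strand, the Tars1 stretch at chr15:11399659-11399703 on the minus strand and the Gars1 stretch at chr6:55037941-55038000 on the plus strand. Their motifs begin 112, 15 and 30 bases before the RefSeq start. The deposited start of Aars1, at 111033144, lies upstream of that one, so in the deposited coordinates its stretch is inside the gene. By letters, Aars1 and Tars1 share the same 8 letters. Aars1 and Tars1 fell, and Gars1 did not pass. Of the 9 matched cytosolic genes without the motif 5 fell and 4 rose, so falls were found with and without it. Sars1 and Yars1, the cytosolic genes with the largest falls, had no match, which says only that these letters are not in their windows.

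The subunits of the phenylalanyl enzyme did not move together. The cytosolic enzyme is built from Farsa, the alpha subunit, and Farsb. Farsa read 56.8, 52.9 and 55.1 FPKM in the Biotin-negative and 50.6, 52.0 and 52.0 FPKM in the Biotin-positive libraries, a small fall at the threshold (difference -0.09, adjusted p = 0.0446). That call was lost under 8 of the 15 other settings tried, among them the replicate block (adjusted p = 0.0697) and the omission of any 1 library other than Biotin-negative replicate 2, over a range of adjusted p from 0.00178 to 0.134. The ratio of Farsa to Farsb was 2.86, 2.76 and 3.05 in the Biotin-negative libraries and 1.62, 1.60 and 1.88 in the Biotin-positive ones. In both groups the alpha subunit had the higher FPKM. The ratio was lower in every Biotin-positive library, which follows from the separate groups of both genes and is no further result. In the GENCODE vM21 annotation 248 exon bases of Farsb are shared with Sgpp2 on the opposite strand, a gene that stayed at a mean of 0.0858 and 0.0509 FPKM.

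Of 7 synthetases of the multisynthetase complex, a cytosolic assembly held by 3 scaffold proteins, 4 rose (Rars1, Kars1, Qars1 and Mars1) and 3 fell (Iars1, Eprs1 and Lars1). The scaffold gene Aimp1 rose from 63.9 ± 0.373 to 74.1 ± 1.10 FPKM (adjusted p = 0.000147), and the scaffold genes Aimp2 (44.7 and 42.2 FPKM) and Eef1e1 (22.4 and 21.7 FPKM) did not pass. The complex therefore held both directions, as all tested genes did, of which 73.9% were called, 37.8% as higher and 36.1% as lower. The other 12 cytosolic enzymes held 3 rises and 6 falls (75% called). By the fold of the catalytic domain, class I held 4 rises and 4 falls among 10 cytosolic genes (80% called). Class II held 3 rises and 5 falls among 9 (88.9% called). Eprs1, the joined glutamyl and prolyl enzyme, was counted only in class I, although the prolyl enzyme Pars2 is in class II. The fall of Eprs1 is therefore missing from the class II count. Mars1 and the stress gene Ddit3 overlap tail to tail by 68 exon bases on opposite strands. Ddit3 fell from 694 ± 12.9 to 171 ± 8.14 FPKM while Mars1 rose, and whether shared reads entered either value was not tested.

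Among the 16 mitochondrial genes 5 rose, 9 fell and 2 did not pass, and the median difference was -0.17. So 87.5% were called, against 73.9% of all tested genes (37.8% as higher, 36.1% as lower). A change of at least 0.5 was seen in 12.5%, against 30.4% of all tested genes, on a scale that understates changes of low genes. Pars2, for proline (chromosome 4, 106651069 to 106655282), read 1.93, 1.70 and 2.205 against 4.11, 3.27 and 3.57 FPKM (difference 0.66, adjusted p = 0.000177). It rose from a low level with no overlap between groups. Iars2 (11.5 ± 0.350 to 16.3 ± 0.576 FPKM), Mars2 (1.62 ± 0.123 to 2.57 ± 0.107), Rars2 (10.98 ± 0.389 to 14.7 ± 0.372) and Yars2 (8.90 ± 1.06 to 11.9 ± 0.973) rose as well. For Iars2, 2034 exon bases are shared with Rab3gap2 on the opposite strand, a gene that fell from 13.4 ± 0.961 to 10.4 ± 0.541 FPKM. The part of this overlap in these values was not tested.

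Lars2, the mitochondrial leucyl enzyme (chromosome 9, 123366927 to 123462666), was among the mitochondrial genes that fell. It read 38.0, 28.5 and 28.7 FPKM in the Biotin-negative and 19.0, 22.8 and 23.2 FPKM in the Biotin-positive libraries (difference -0.52, SE 0.115, adjusted p = 0.00315). Replicate 1 was the highest library of the first group and the lowest of the second, and the SE of Lars2 was the widest of the 35 genes. Ears2, which charges glutamate and starts the glutamine route, read 8.57, 8.11 and 9.26 against 6.18, 6.06 and 5.34 FPKM (difference -0.49, adjusted p = 0.00022). Cars2, Nars2, Wars2, Fars2, Hars2 and Aars2 fell by 0.44, 0.43, 0.39, 0.36, 0.33 and 0.26 on the log2 scale. Cars2 shares 422 exon bases with Naxd on the opposite strand, a gene that did not pass (25.5 and 26.3 FPKM). On the opposite strand Fars2 shares 501 exon bases with Nrn1 and 115 with Lyrm4, and Ears2 shares 89 with Ubfd1. Nrn1 fell from 6.21 ± 0.211 to 3.24 ± 0.119 FPKM, Lyrm4 from 7.52 ± 0.463 to 4.81 ± 0.0358 and Ubfd1 from 19.1 ± 0.449 to 14.9 ± 0.351. The part of these overlaps in the values of Fars2 and Ears2 was not tested. Tars2, the most abundant mitochondrial member, fell from 40.2 ± 0.418 to 37.6 ± 0.598 FPKM (adjusted p = 0.0223), a call that was lost without Biotin-negative replicate 1 or 3 (adjusted p = 0.0561 and 0.0621) or Biotin-positive replicate 1 or 2 (adjusted p = 0.0647 and 0.0643), while the lowest value under any alternative was 0.00219. Sars2 (5.15 and 5.96 FPKM) and Vars2 (1.12 and 1.23 FPKM) did not pass. Sars2 did pass as higher without Biotin-negative replicate 1 (adjusted p = 0.0197), and the highest value under any alternative was 0.338.

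Enzymes for the same amino acid were then set side by side. Of 17 pairs of a cytosolic and a mitochondrial gene, counting Eprs1 against both Ears2 and Pars2 and both phenylalanyl subunits against Fars2, both genes fell in 6 and both rose in 2. The pairs in which both fell were those for alanine, leucine, asparagine, threonine and glutamate and the pair of Farsa with Fars2, and both rose for methionine and arginine. In 6 pairs the genes went in opposite directions. Cytosolic enzymes fell while mitochondrial ones rose for isoleucine, tyrosine and proline, and the reverse held for histidine, tryptophan and the pair of Farsb with Fars2. In the remaining 3, for cysteine, serine and valine, at least 1 gene did not pass. The pairs share genes and are not independent, and 3 of them rest on the calls of Farsa, Tars2 or Wars1 that some settings lost. Of all tested genes 37.8% were called higher and 36.1% lower. No pairs of other genes were counted, so these counts cannot be read as particular to the 2 compartments.

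**Figure D3:**
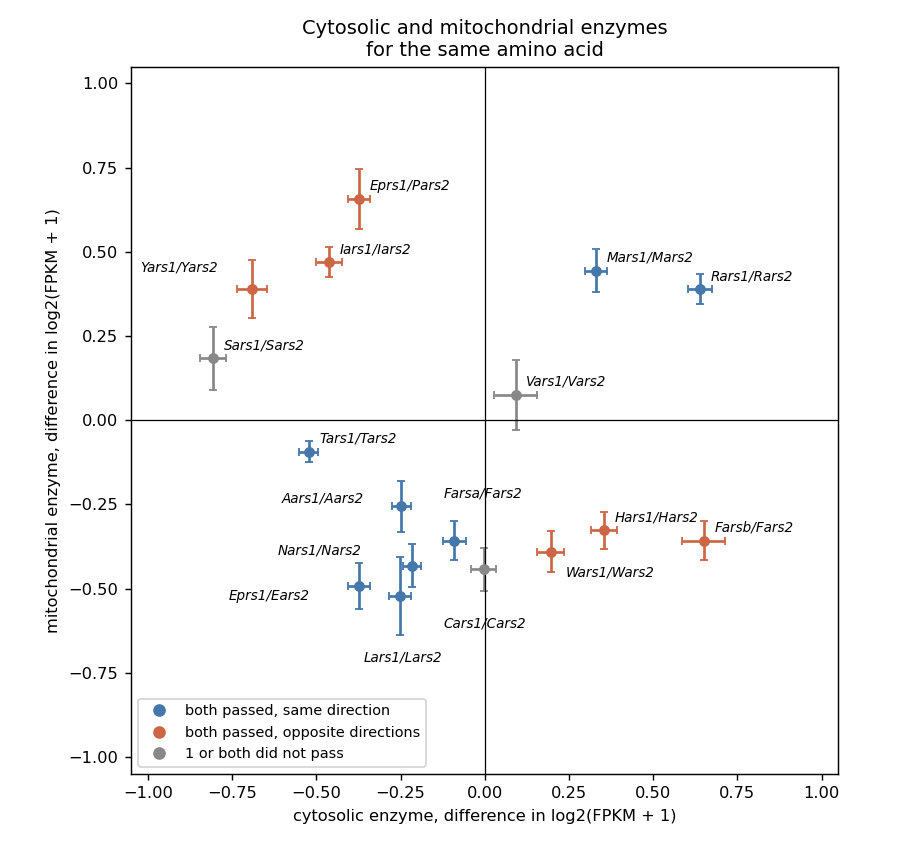
Each point is a pair of enzymes for the same amino acid, with the difference in log2(FPKM + 1) of the cytosolic gene on the horizontal and of the mitochondrial gene on the vertical axis; bars are standard errors. Points lie in all 4 quadrants, with Iars1/Iars2, Yars1/Yars2 and Eprs1/Pars2 at the upper left and Hars1/Hars2, Wars1/Wars2 and Farsb/Fars2 at the lower right.

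The ratio of FPKM within a pair was taken in each library, where 3 libraries against 3 cannot give an exact two-sided p below 0.1. Eprs1 stood at 40.5, 44.2 and 34.3 times Pars2 in the Biotin-negative libraries and at 14.6, 18.02 and 16.1 times in the Biotin-positive ones. The ratio of Iars1 to Iars2 was 7.36, 7.16 and 7.25 against 3.57, 3.87 and 3.66. For Yars1 to Yars2 it was 5.44, 7.10 and 5.93 against 2.93, 2.44 and 3.03. These 3 ratios were lower in every Biotin-positive library. That follows from their genes, whose groups were already separate in opposite directions, and is no further result. The ratio of Hars1 to Hars2 was 3.21, 3.22 and 3.20 against 5.10, 5.63 and 5.25, and that of Wars1 to Wars2 was 11.3, 10.2 and 9.67 against 17.97, 16.9 and 15.03. Both were higher in every Biotin-positive library, which again follows from the separate groups of their genes. Hars1 and Hars2 lie head to head with 195 shared exon bases on opposite strands. The ratio overlapped between groups for Aars1 to Aars2, Lars1 to Lars2 and Vars1 to Vars2.

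**Figure D4:**
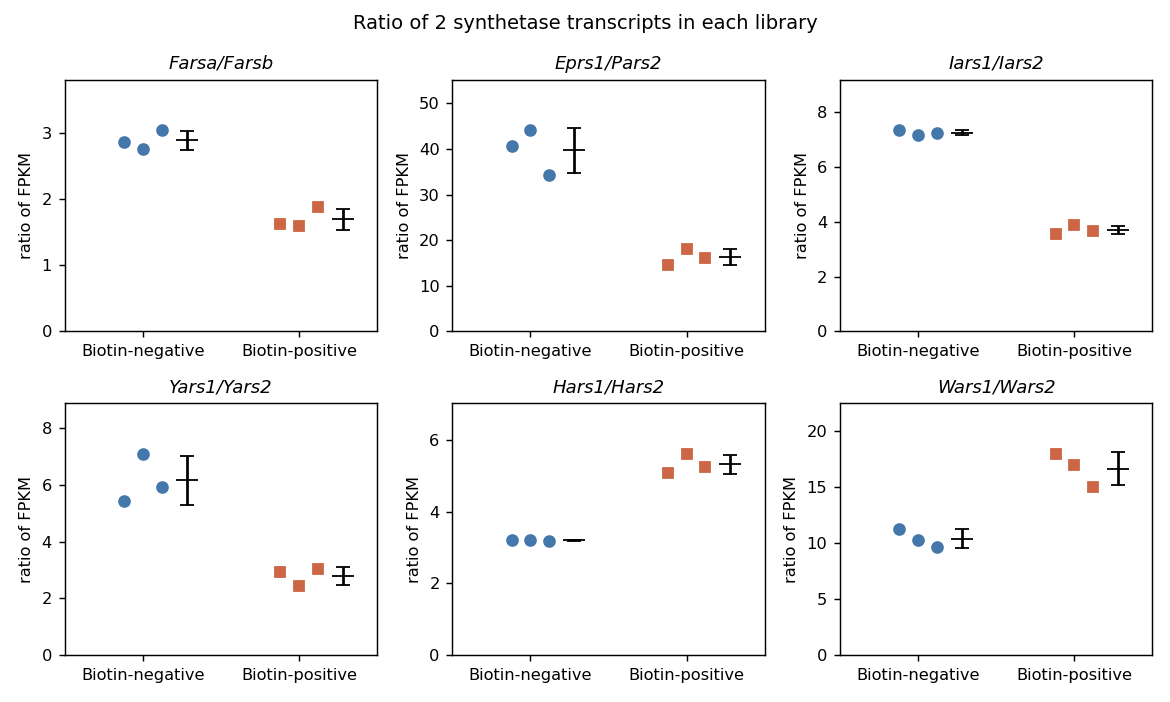
Ratio of the FPKM of 2 synthetase genes in each library (circles Biotin-negative, squares Biotin-positive), with the mean and SD of 3 libraries as a bar beside them; each panel starts at 0. The ratio is lower in the Biotin-positive libraries for Farsa/Farsb, Eprs1/Pars2, Iars1/Iars2 and Yars1/Yars2 and higher for Hars1/Hars2 and Wars1/Wars2. In each panel the 2 genes had separate groups in opposite directions, so the separation of the ratio follows from them.

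Summed over the 19 cytosolic genes, FPKM was 1616, 1559 and 1587 in the Biotin-negative libraries and 1434, 1440 and 1402 in the Biotin-positive ones. The sum was lower in every Biotin-positive library, at a ratio of means of 0.898, and most of that lay in 1 gene: without Sars1 the sums were 1276 ± 14.6 and 1248 ± 18.9 FPKM. The 16 mitochondrial genes summed to 186, 166 and 175 FPKM in the Biotin-negative libraries and 159, 162 and 164 FPKM in the Biotin-positive ones, so the groups were separate but close. The log2 ratio of these sums was -0.12, and -0.0776 without Biotin-negative replicate 1. Without Lars2 these sums were 144 ± 5.33 and 139.9 ± 0.868 FPKM.

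Genes around tRNA charging, from lists drawn up with earlier results of these data known, are given by the same fit and against the same 73.9% of all tested genes called. Of 22 amino acid genes under ATF4 other than synthetases 7 rose, 13 fell and 2 did not pass, with a median of -0.24. The glycine transporter gene Slc6a9 fell from 51.2 ± 2.74 to 14.0 ± 0.289 FPKM, the mitochondrial folate enzyme gene Aldh1l2 from 104 ± 1.52 to 34.0 ± 1.66 FPKM and the pseudokinase gene Trib3 from 197 ± 3.72 to 78.2 ± 3.10 FPKM. Of the 7 that rose, Chac1 changed most, from 31.8 ± 0.577 to 46.9 ± 1.94 FPKM. Asns did not pass (149 and 153 FPKM). Of 12 genes of the GCN2 and eIF2 stress pathway 5 rose and 5 fell. Besides Ddit3, the transcription factor gene Atf5 fell from 108 ± 3.89 to 49.1 ± 1.10 FPKM, and Eif2ak3, the eIF2 kinase PERK, from 10.2 ± 0.560 to 5.80 ± 0.410 FPKM. Eif2ak4, the kinase GCN2 that senses uncharged tRNA, rose from 4.08 ± 0.248 to 5.54 ± 0.188 FPKM. Calls among these stress genes went both ways, but the larger changes were falls. A fall of at least 0.5 was seen in 3 of the 12, and a rise of that size in 0. Of the 22 amino acid genes 9 fell and 1 rose by at least 0.5, and of the 35 synthetases 4 fell and 3 rose. Changes of that size made up 25% of the stress genes and 45.5% of the amino acid genes, against 30.4% of all tested genes.

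The factors that use charged tRNA on the ribosome follow, by compartment. Of 8 tested cytosolic elongation and termination factors 7 rose and 1 fell, where 37.8% of all tested genes were called higher. Most of these changes were small, with a median difference of 0.23. A change of at least 0.5 was seen in 12.5% of the 8, against 30.4% of all tested genes. Eef1d counts as a rise although its groups overlapped. Eif5a, which helps the ribosome through difficult stretches such as prolines, rose from 167 ± 1.20 to 309.7 ± 6.08 FPKM, and the release factor gene Gspt1 from 28.5 ± 0.589 to 38.4 ± 0.612 FPKM. Of 11 mitochondrial translation factors 5 rose, 4 fell and 2 did not pass. The elongation factor gene Gfm1 rose from 11.3 ± 0.718 to 21.3 ± 0.255 FPKM and the rescue factor gene Mtrfr from 3.20 ± 0.246 to 5.67 ± 0.641 FPKM, while the release factor gene Mtrf1l fell from 14.3 ± 0.744 to 7.73 ± 0.530 FPKM. Mitochondrial translation factors therefore moved in both directions too.

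Genes that mature tRNA or proofread it were taken last. Of 16 genes of tRNA processing and modification, most of them with mitochondrial tRNA as a substrate, 3 rose, 9 fell and 4 did not pass, with a median of -0.18. Qtrt1 and Qtrt2, the subunits of the enzyme that inserts queuine into tRNA, both fell. Qtrt1 went from 34.5 ± 2.46 to 17.1 ± 2.02 FPKM and Qtrt2 from 13.2 ± 0.609 to 7.47 ± 0.405 FPKM. Gtpbp3, which modifies mitochondrial tRNA, fell from 19.3 ± 2.74 to 13.3 ± 0.978 FPKM. Of the 4 genes that amidate or formylate mitochondrial tRNA, Gatc (18.1 ± 0.904 to 15.1 ± 1.15 FPKM) and Mtfmt (7.79 ± 0.959 to 6.58 ± 0.225 FPKM) fell, and Gatb and Qrsl1 did not pass. Of 7 synthetase-like and editing genes, Prorsd1, which clears wrongly charged proline tRNA, fell from 11.2 ± 0.296 to 6.21 ± 0.368 FPKM. Tars3, another threonyl enzyme, outside the name rule, rose from 6.46 ± 0.627 to 9.03 ± 0.304 FPKM, where Tars1 fell. Dtd1 rose and 4 of the 7 did not pass.

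**Figure D5:**
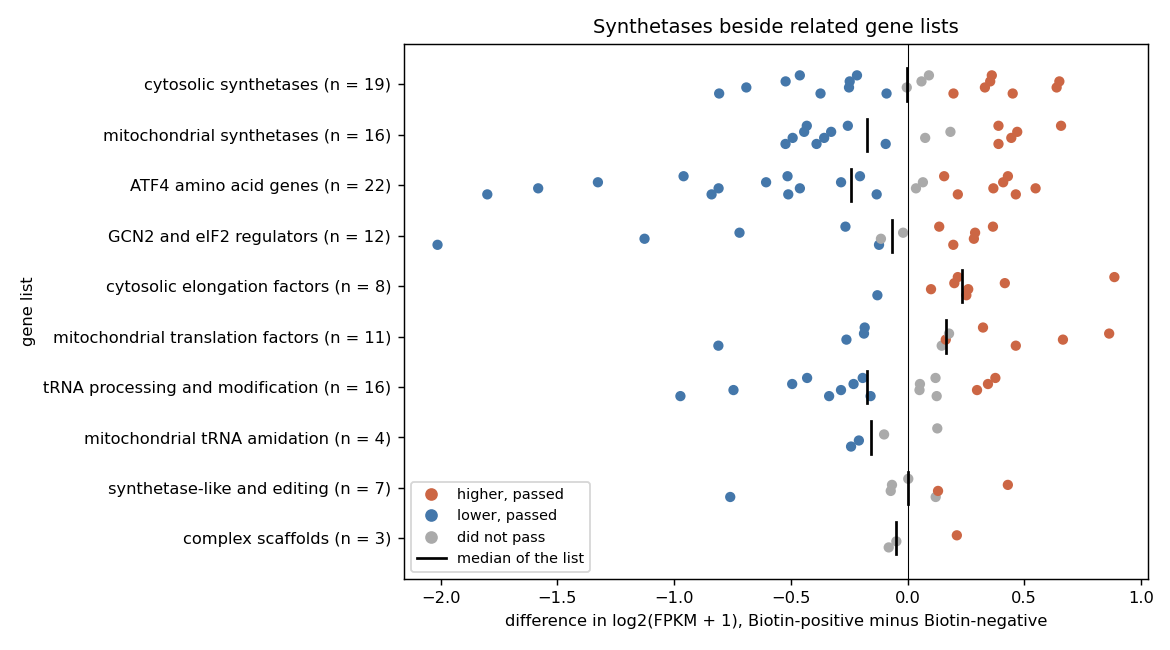
Difference in log2(FPKM + 1), Biotin-positive minus Biotin-negative, of each tested gene in the 2 synthetase sets and 8 related lists; colour gives the call and the black bar the median of the list. Synthetases spread over both sides of 0, between -0.81 and 0.66, while ATF4 amino acid genes reach -1.80 and GCN2 and eIF2 regulators -2.01.

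FPKM summed to between 337771 and 356681 per library, and the depth in reads is unknown. Of 10 fibroblast markers 7 were tested, among them Col1a1, Col1a2 and Vim, while Thy1, Dcn and Lum stayed below 1 FPKM in every library. Of these 7, 5 fell and 2 rose, with a median difference of -0.88. Col3a1 fell from 208 ± 5.94 to 58.2 ± 0.943 FPKM, and Pdgfrb, Col1a2, Col1a1 and Pdgfra fell too. Vim rose from 658 ± 14.0 to 1418 ± 43.5 FPKM, and S100a4 rose too. The list summed to between 1969 and 2019 FPKM in the Biotin-negative and between 2448 and 2519 FPKM in the Biotin-positive libraries. Of 10 epithelial markers only Krt7 and Krt8 reached testing, and the list summed to between 1.20 and 1.31 FPKM in the Biotin-negative and between 45.4 and 47.8 FPKM in the Biotin-positive libraries. The other 8, Epcam and Cdh1 among them, stayed below 1 FPKM everywhere. Of 8 immune markers 2 were tested (Cd68 and Cd14), with a summed level of 10.5 to 13.5 and 12.1 to 15.2 FPKM, Adgre1 and Cd3e at 0 throughout and Ptprc below 1 FPKM. The part of these markers in the synthetase differences was not tested.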

How the data were processed

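The data are RNA-seq of L929 cells, with 3 libraries in each of 2 groups, Biotin-negative and Biotin-positive. The authors deposited FPKM values, 1 column per library. The submitters' processing notes name cutadapt 1.9.1, HISAT2 2.2.1, HTSeq 0.6.1 and GRCm39. The gene coordinates in the deposited table are nevertheless those of GRCm38: of 21816 genes found by ID in GENCODE vM21, which is on that build, 99.1% had the same start and end, all 35 synthetases among them. Coordinates are therefore given as GRCm38, and the build of the alignment itself was not tested. The program that made the FPKM values, its denominator and the strand setting are not given in the sources used here. FPKM is not a count, so the depth and the intervals that need it are unknown, and precision is the SD over 3 libraries.

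A gene was tested if 3 or more libraries had 1 FPKM or more. The test was the two-sided one of limma 3.58.1 (R 4.3.3) on log2(FPKM + 1), with eBayes and a mean-variance trend. P-values were adjusted by Benjamini-Hochberg over all 11029 genes at a threshold of 0.05. The procedure was run on simulated data in which few genes changed. Most genes were called here, so that run does not measure its errors in these data. Replicate numbers were not used as pairs.

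The members, the lists of related genes and the motif were chosen with earlier results of these data known, so no list was tested as a set. Some members of the family are not reported here and entered no count, and all others are named. In the other lists up to 3 passing members with the largest change are named. Atf4, Eif2ak4, Chac1 and the genes that did not pass were named after their values were seen. Shared exon bases and stretches with at least 98% identity over 100 bases were taken from GENCODE vM21 transcripts (blastn 2.17.0). The identical stretches reached at most 37.2% of a member's transcript. Promoters came from RefSeq on GRCm38.p6. Tables and figures used Python 3.11.15, pandas 2.3.3 and matplotlib 3.10.9. Alternatives were pseudocounts of 0.1 and 0.5, other filters, scaling by the median of ratios, by quantiles or to an equal sum, eBayes without a trend, the replicate number as a term, the omission of each library and a minimum change of 0.5.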

Additional observations from a re-analysis of the deposited data

How the results depend on the processing

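Of the 30 synthetases called, 27 kept direction and call under each of 15 alternatives in which they were tested. The exceptions were Farsa, Tars2 and Wars1. With a minimum of 5 FPKM 31 of the 35 were tested, and 3 mitochondrial genes were called higher. With a minimum change of 0.5 the cytosolic counts became 2 higher and 3 lower and the mitochondrial counts 1 higher and 1 lower. The median of the cytosolic genes was -0.10 with quantile normalization and -0.0645 with an equal sum per library, and that of the mitochondrial genes was -0.29 at a minimum of 5 FPKM. With an equal sum the log2 ratios of summed FPKM were -0.22 (cytosolic) and -0.18 (mitochondrial), against -0.16 and -0.12. Leaving out 1 library gave -0.17 to -0.14 and -0.16 to -0.0776, the last without Biotin-negative replicate 1. Leaving out 1 library gave cytosolic medians from -0.0220 to 0.0293, 7 rises and 8 to 9 falls in the cytosolic set, and 5 to 6 rises and 8 to 9 falls in the mitochondrial set. Signs changed in 3 genes that had not passed. Gars1 was -0.0592 with quantile normalization and -0.0021 with an equal sum, and Vars2 was -0.0571 with quantile normalization. Without 1 library Cars1 ranged from -0.0220 to 0.0293 and Vars2 from -1.09e-05 to 0.168. Cars1 was called lower with quantile normalization (-0.10). The causes were not tested. Equal replicate numbers did not deviate together (correlations 0.04, 0.01 and 0.01 across genes), and the replicate block gave 7 rises and 8 falls in the cytosolic and 5 rises and 9 falls in the mitochondrial set. Depth is unknown, so what it limits among the low genes, such as Vars2, Mars2 and Pars2, cannot be given.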
